A study of Mus musculus with 8 samples.

Results

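The genes described here encode chaperones and folding enzymes of the endoplasmic reticulum and regulators of its stress response, and their transcripts were followed in mouse small intestine under a Notch pathway blocker, a glucocorticoid, or both. They are Hspa5, Hsp90b1, Pdia3, Pdia4, Pdia6, Calr, Dnajb9, Sdf2l1, Xbp1 and Ddit3. The list was fixed by name, with earlier results of these data known. Every probe set annotated to one of these 10 genes was taken, which gave 19 of the 22690 probe sets on the array. Of the 19, 17 passed the filter on low signal and were tested among 13638 probe sets, and each of the 10 genes kept at least 1. The probe sets left out were 1450620_at of Pdia4 and 1430983_at of Pdia6, whose mean signals of 11.1 and 13.8 were under the filter's minimum of 38.8.

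The small intestine came from 6-week-old female C57/Black6 mice (wild type as far as the labels say) that had been injected intraperitoneally every day for 5 days. The 4 groups received the solvent dimethyl sulfoxide (vehicle), dexamethasone at 15 mg/kg, DBZ at 10 umol/kg, or dexamethasone at 15 mg/kg together with DBZ at 10 umol/kg (the combination). Dexamethasone is a synthetic glucocorticoid, and DBZ inhibits gamma-secretase, the protease that releases the active part of Notch receptors. The series asks how the drugs act together on the gut, because Notch inhibition shifts intestinal progenitors toward secretory cells. Each group is labelled with 2 samples, but the pair of DBZ columns agreed exactly in 22684 of the 22690 probe sets (1 copy was 0 in the other 6) and was used as 1 array, leaving 7 distinct arrays.

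Secreted and membrane proteins fold in the endoplasmic reticulum with the help of the chaperones Hspa5 (BiP) and Hsp90b1 (Grp94), the calcium-binding lectin chaperone Calr and the disulfide isomerases of the Pdia family. When unfolded protein accumulates, the sensors Ire1, Atf6 and Perk start the unfolded protein response. Ire1 splices Xbp1 mRNA, Xbp1 and Atf6 raise chaperone genes through ER stress response elements in their promoters, and Perk signalling through Atf4 raises Ddit3 (Chop), a factor linked to cell death under lasting stress. Goblet, Paneth and plasma cells secrete heavily and depend on this machinery, and loss of Xbp1 in the gut epithelium depletes Paneth cells.

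Because the factors of this response act at promoters, the 250 bases before the annotated start of each gene were searched in RefSeq sequence of GRCm38.p6, in which all 10 genes were found. The whole ER stress response element, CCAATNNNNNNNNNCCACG on either strand, occurred in 37 of 32851 promoter windows of the same length (0.113%) and in 4 of the 10 genes, namely Hspa5, Hsp90b1, Pdia6 and Calr. The windows are shown for these 4, with the element in capitals, and for Pdia3, the isomerase with the largest DBZ difference among the 10 genes, in which the whole element was not found. They are written in the direction of transcription and end at the base before the start.
Hspa5: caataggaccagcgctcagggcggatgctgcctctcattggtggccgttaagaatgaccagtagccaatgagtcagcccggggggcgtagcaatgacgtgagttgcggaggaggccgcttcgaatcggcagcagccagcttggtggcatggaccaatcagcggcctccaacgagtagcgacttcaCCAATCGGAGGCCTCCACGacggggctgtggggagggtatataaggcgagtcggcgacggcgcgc
Hsp90b1: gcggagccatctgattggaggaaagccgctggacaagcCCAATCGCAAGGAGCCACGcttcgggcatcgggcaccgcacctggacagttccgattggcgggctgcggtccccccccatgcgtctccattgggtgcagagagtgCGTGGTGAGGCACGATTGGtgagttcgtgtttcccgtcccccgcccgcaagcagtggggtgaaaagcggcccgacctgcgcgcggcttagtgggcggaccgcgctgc
Pdia6: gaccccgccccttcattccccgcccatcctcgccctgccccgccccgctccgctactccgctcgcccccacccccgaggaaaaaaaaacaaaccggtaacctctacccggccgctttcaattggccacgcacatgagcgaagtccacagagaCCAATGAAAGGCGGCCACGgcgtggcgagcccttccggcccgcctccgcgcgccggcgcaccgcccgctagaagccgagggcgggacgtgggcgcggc
Calr: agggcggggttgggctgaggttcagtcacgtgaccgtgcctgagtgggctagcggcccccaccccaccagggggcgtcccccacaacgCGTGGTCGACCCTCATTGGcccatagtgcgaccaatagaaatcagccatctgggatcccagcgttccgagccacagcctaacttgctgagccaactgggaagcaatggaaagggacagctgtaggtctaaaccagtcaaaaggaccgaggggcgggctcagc
Pdia3: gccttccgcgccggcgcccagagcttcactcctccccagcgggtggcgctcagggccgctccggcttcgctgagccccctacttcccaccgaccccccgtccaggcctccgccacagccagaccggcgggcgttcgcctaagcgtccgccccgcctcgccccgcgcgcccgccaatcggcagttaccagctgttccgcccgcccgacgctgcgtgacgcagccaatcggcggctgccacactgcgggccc
The Hspa5 window is chr2:34771840-34772089 (plus strand), and its element lies 65 to 47 bases before the start. Hsp90b1 (chr10:86705445-86705694, minus strand) carries the element at 212 to 194 bases, and again at 107 to 89 bases in the opposite orientation. In Pdia6 (chr12:17266339-17266588, plus strand) it lies at 98 to 80 bases, and in Calr (chr8:84846932-84847181, minus strand) at 162 to 144 bases in the opposite orientation. The Pdia3 window (chr2:121413652-121413901, plus strand) has CCAAT at 79 to 75 and at 29 to 25 bases but no CCACG on either strand. The CCAAT box alone occurred in 33.8% of all windows and in 9 of the 10 genes (not in Xbp1), and CCACG in 28.3% and in 6; both are parts of the whole element. Other letters searched on both strands were the Xbp1 site TGACGTGG (0.563%) and the cyclic AMP response element TGACGTCA (1.55%), and 0 of the 10 windows held either. The GC share of the 10 windows ran from 50.4% (Xbp1) to 75.6% (Pdia3), beside a median of 52.4% over all windows. The 10 genes were listed by name as parts of this response, so their matches are a description without a test. A match of letters does not show that a factor binds there, and the absence of a match concerns only this window.

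**Figure D1:**
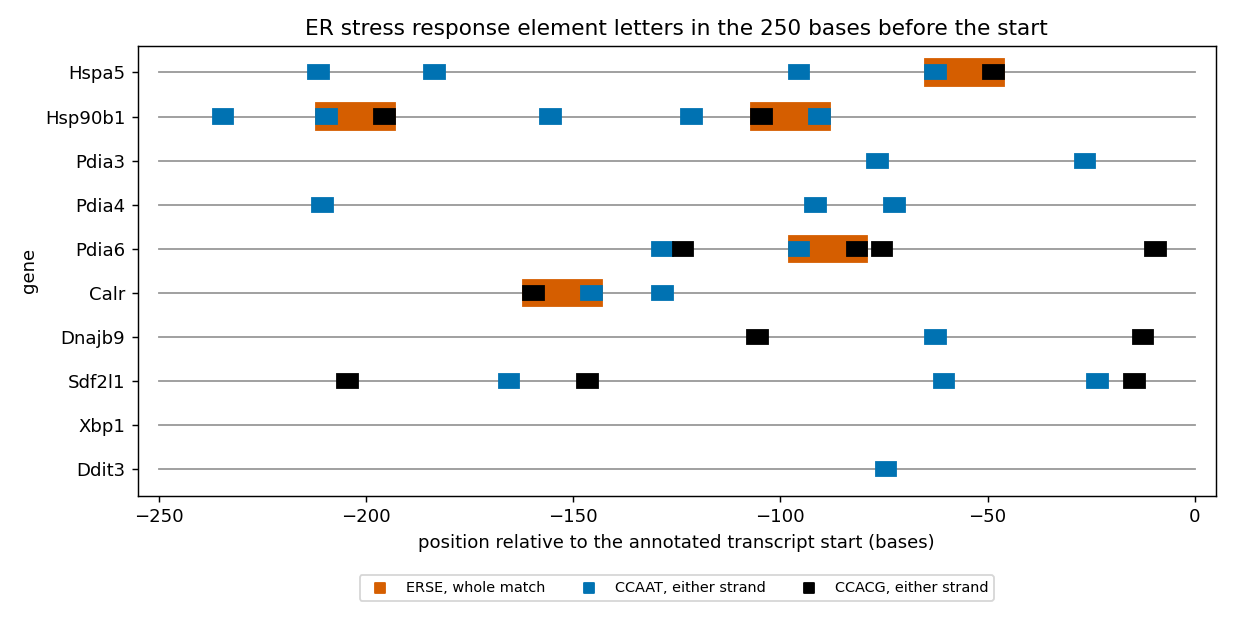
Position of matches to the ER stress response element (orange), to CCAAT (blue) and to CCACG (black) on either strand in the 250 bases before the annotated transcript start of each of the 10 genes; the horizontal axis gives bases relative to the start at 0. Whole elements lie in 4 genes, with 2 in Hsp90b1, and the Xbp1 window holds 0 matches to CCAAT.

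Several facts about the arrays bear on what follows. The deposited vehicle arrays had a trimmed mean signal of 500.2 and the others of 250.1, so all arrays were scaled to 250, and signals below are in these scaled arbitrary units; log2 values are log2 of signal plus 12.3. As deposited, the median change of all tested probe sets against vehicle was -0.999 for DBZ, -0.92 for dexamethasone and -0.99 for the combination, and directions against vehicle below are those after scaling. The labels give only small intestine, and markers of gut position differed between the groups: 7 genes of the proximal intestine summed to 10770 and 12850 on the vehicle arrays and to between 674 and 1500 on the others, while 5 ileal genes with a probe set summed to 202 and 239.9 on the vehicle arrays and to between 1640 and 12980 on the others. Reg1 was the brightest proximal gene on the vehicle arrays (7193 and 8090), and Fabp6 the brightest ileal gene on the others (1116 to 11870). Not every proximal gene followed. Slc40a1 was 139 and 140 in vehicle but 519 on dexamethasone replicate 1, and dim Cybrd1 (18.0 and 22.1 in vehicle) ran from 9.57 to 33.2 on the others. Vehicle against treatment therefore cannot be told apart from this difference in markers, and its part in the changes was not tested. Ileal sums also differed among treated arrays, at 12980 in DBZ, 4099 and 10930 in dexamethasone, and 1652 and 1640 in the combination. Comparisons between treated groups therefore cannot be told apart from a difference in these markers either. In whole tissue, fewer cells of a type and less RNA per cell cannot be told apart either. Signal was most 3' biased on the DBZ array, with a 3' to 5' ratio of 1.80 for Gapdh against 0.905 to 1.22 elsewhere, and of 2.17 for actin against 1.22 to 1.79. Each comparison was fitted with limma over all tested probe sets, and p-values were adjusted by the Benjamini-Hochberg method at 0.05. Nothing says how the tissue of the replicates was taken, so the p-values measure the spread between these arrays, and the fit gives the unreplicated DBZ group the same spread as the groups of 2. Leaving out an array of a group of 2 leaves fewer residual degrees of freedom than the 3 of the full fit. A call can therefore be lost below while its log2 change stays the same.

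DBZ alone went with a lower Pdia3 signal, while the other 9 genes, each represented by its brightest probe set, did not pass the test against vehicle. Pdia3 (ERp57), the isomerase that works with calreticulin on glycoproteins, fell, and Calr itself was 0.39 ± 0.23 (SE) on the log2 scale with adjusted p = 0.310. Further probe sets of Hspa5 and Xbp1 also fell, in conflict with the brightest probe sets of the same genes. Over all tested probe sets 8.34% passed in this comparison (510 or 3.74% rose, and 627 or 4.6% fell; as deposited 129 and 9227), against 1 of 10 genes and 3 of 17 probe sets here. The median log2 change was -0.13 over the 10 genes and -0.05 over all tested probe sets, and the median size without sign was 0.43 against 0.38.

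Pdia3 had signals of 1947 and 1544 on the vehicle arrays, 1065 and 1439 under dexamethasone, 773 on the DBZ array, and 1552.5 and 1403 under the combination. The DBZ array was the lowest of the 7, the dexamethasone arrays were below both vehicle arrays, and of the combination arrays replicate 1 lay between the vehicle values and replicate 2 below them. The log2 change in DBZ against vehicle was -1.15 ± 0.24 (SE; 95% interval -1.69 to -0.61, limma adjusted p = 0.0225). In dexamethasone and in the combination it was -0.48 (adjusted p = 0.151) and -0.23 (adjusted p = 0.514). The DBZ change was tested for its dependence on dexamethasone with the interaction, which is the combination minus dexamethasone, less the difference of DBZ and vehicle. For Pdia3 it was 1.40 ± 0.31 (interval 0.70 to 2.10, limma adjusted p = 0.0401). With dexamethasone present in both groups, the change with DBZ was 0.25 (interval -0.19 to 0.69, adjusted p = 0.730). Without vehicle replicate 1 the DBZ change was -0.99 (adjusted p = 0.0704), and the interaction lost its call without combination replicate 1 (1.33), combination replicate 2 (1.48), dexamethasone replicate 1 (1.19) or vehicle replicate 1 (1.24). The combination against DBZ gave 0.92 ± 0.24 (interval 0.38 to 1.46), which was below an unadjusted p of 0.05 but had an adjusted p of 0.170.

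The values of the general chaperones depended on the probe set. Hspa5, the Hsp70-class chaperone that holds the stress sensors inactive, gave 3035 and 3206 on the vehicle arrays, 2748 and 3502 under dexamethasone, 3486 under DBZ, and 2817 and 3397 under the combination by its probe set 1416064_a_at. All other values lay between those of the dexamethasone pair. The log2 change against vehicle was 0.16 ± 0.23 in DBZ (95% interval -0.35 to 0.67), -0.01 ± 0.19 in dexamethasone (-0.42 to 0.41) and -0.01 ± 0.19 in the combination (-0.43 to 0.40). Probe set 1427464_s_at of Hspa5 gave 1998 and 1673 in vehicle, 1006 and 1433.5 in dexamethasone, 963 in DBZ, and 1229 and 1211 in the combination. Here every treated array was below both vehicle arrays. Its change of -0.92 ± 0.24 in DBZ passed the test (adjusted p = 0.0476), while -0.60 in dexamethasone (adjusted p = 0.0815) and -0.58 in the combination (adjusted p = 0.109) did not. That call was lost without combination replicate 1 or 2 (-0.92 in both cases), vehicle replicate 1 (-0.79, adjusted p = 0.133) or vehicle replicate 2 (-1.04, adjusted p = 0.063).

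Hsp90b1, the Hsp90-class chaperone of secreted and surface proteins, gave 1703 and 2209 in vehicle, 1436 and 2005.5 in dexamethasone, 1543 in DBZ, and 1565 and 1549 in the combination by 1415889_a_at. The DBZ and combination arrays were below both vehicle arrays but within the dexamethasone pair. Its second probe set, 1438040_a_at, gave 776 and 621 in vehicle, 635 and 759.5 in dexamethasone, 417 in DBZ, and 585 and 529 in the combination. In both probe sets the DBZ and combination arrays were under the vehicle pair, and the log2 change in DBZ was -0.33 ± 0.25 (adjusted p = 0.443) and -0.72 ± 0.23 (adjusted p = 0.0795).

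Calr, the calcium-binding lectin chaperone, had 3 tested probe sets that ran alike. The brightest, 1417606_a_at, gave 2599 and 2239.5 in vehicle, 2687 and 3436 in dexamethasone, 3168 in DBZ, and 2701 and 3113 in the combination. Every treated array was above both vehicle arrays, which also held for 1456170_x_at (1727 to 1909 in vehicle and 2122 to 2621.5 in the others) and for 1433806_x_at (1439 to 1449 and 1811.5 to 2353). In order of brightness the log2 changes were 0.39, 0.42 and 0.52 in DBZ, 0.33, 0.39 and 0.51 in dexamethasone, and 0.26, 0.26 and 0.43 in the combination, and with the intensities as deposited all of them were below 0. None passed, and limma's adjusted p-values ranged from 0.0903 to 0.418. The DnaJ-domain co-chaperone Dnajb9 (ERdj4), an Hspa5 partner that is induced by Xbp1, gave 998 and 1395.5 in vehicle, 706 and 779 in dexamethasone, 851 in DBZ, and 906 and 687 in the combination. Every treated array was below both vehicle arrays. Its change was -0.66 ± 0.21 in dexamethasone (adjusted p = 0.0706), -0.47 ± 0.26 in DBZ (adjusted p = 0.280) and -0.57 ± 0.21 in the combination (adjusted p = 0.130). Sdf2l1, which works in a complex with Hspa5 and ER DnaJ proteins, gave 137 and 132.5 in vehicle, 82.2 and 138 in dexamethasone, 73.2 in DBZ, and 56.6 and 91.4 in the combination. The vehicle arrays were above all others but dexamethasone replicate 2. The change was -0.80 ± 0.30 in the combination (interval -1.47 to -0.13, adjusted p = 0.137), -0.78 ± 0.37 in DBZ (adjusted p = 0.207) and -0.30 ± 0.30 in dexamethasone (adjusted p = 0.573).

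**Figure D2:**
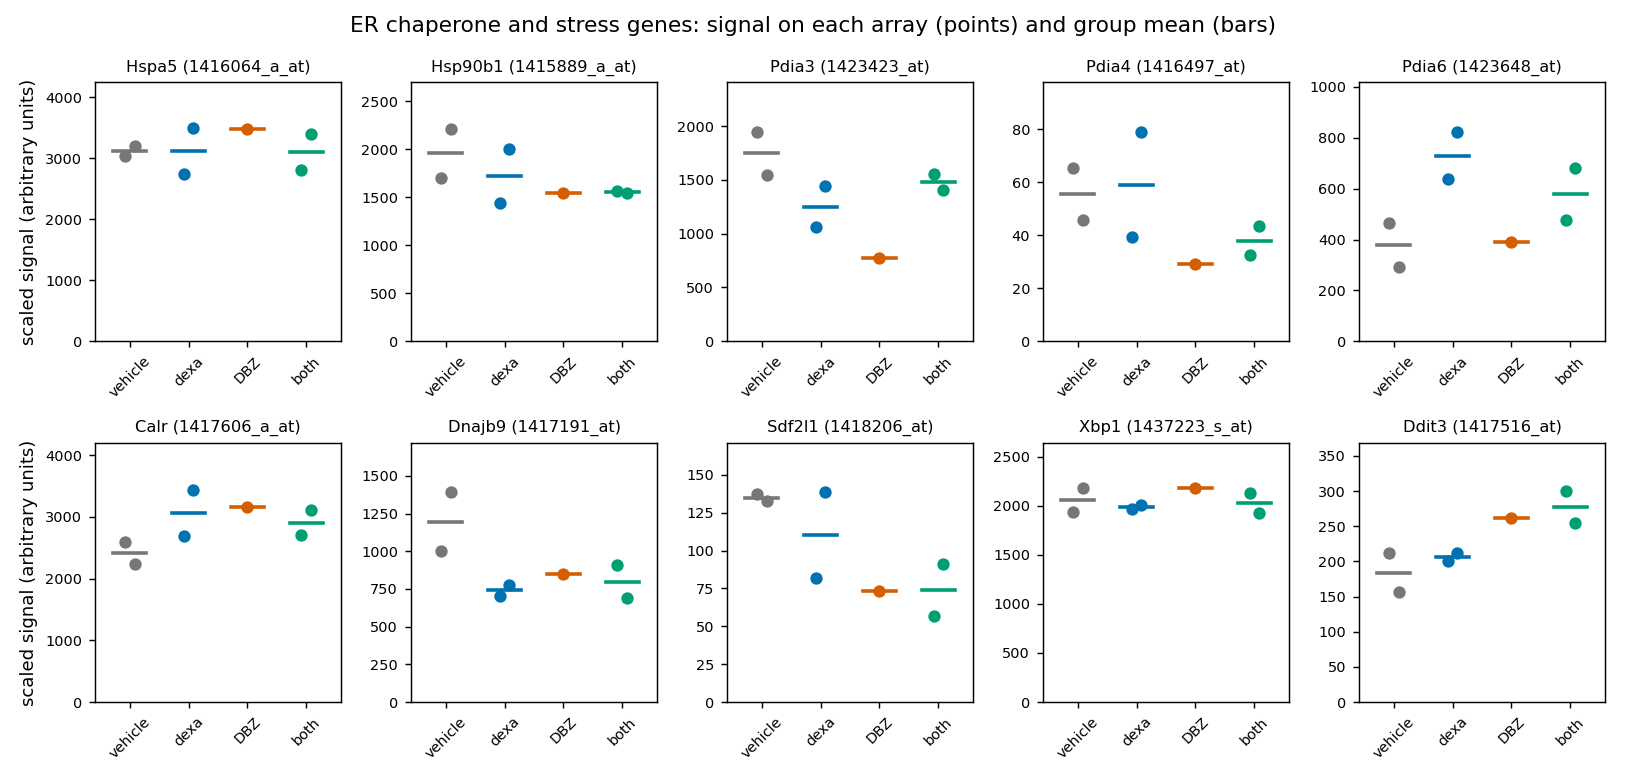
Scaled signal in arbitrary units on each of the 7 arrays (points) and the group mean (bars) for the brightest probe set of each of the 10 genes; dexa is dexamethasone and both is the combination, and DBZ is 1 array. Pdia3 is lowest on the DBZ array (773), Pdia6 is highest on dexamethasone replicate 2 (822), and the Xbp1 arrays lie between 1927 and 2187.

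Dexamethasone alone went with a higher signal of Pdia6, a disulfide isomerase that also attenuates Ire1 signalling, and with a lower signal of 1 of the 4 Xbp1 probe sets. The other genes did not pass. In this comparison 12% of all tested probe sets passed (985 or 7.22% rose and 657 or 4.82% fell, and as deposited 201 and 9974), against 1 of 10 genes and 2 of 17 probe sets here. Of the 10 genes 3 had an unadjusted p under 0.05, beside 26.9% of all tested probe sets. The median over the 10 genes was -0.03 and over all tested probe sets 0.02, with median sizes of 0.25 and 0.30.

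Pdia6 gave 465 and 291 in vehicle, 637 and 822 in dexamethasone, 389 in DBZ, and 476 and 679.8 in the combination. Both dexamethasone arrays were above both vehicle arrays and the DBZ array, and the combination pair straddled the lower dexamethasone value. The change in dexamethasone was 0.95 ± 0.26 (95% interval 0.38 to 1.53, limma adjusted p = 0.0410), but -0.023 with the intensities as deposited. It was 0.61 ± 0.26 in the combination (adjusted p = 0.182) and 0.08 ± 0.32 in DBZ (interval -0.63 to 0.78). The call was lost without vehicle replicate 2 (0.63, adjusted p = 0.205), dexamethasone replicate 1 (1.13) or 2 (0.77), or combination replicate 1 or 2 (0.95 in both cases). The mean over both Pdia6 probe sets, of which 1 was near background, changed by 0.52 (adjusted p = 0.306). For Paneth cells, 6 of 10 listed markers had a probe set, their signals summed to 11270 and 14550 in vehicle, 14850 and 18140 in dexamethasone, 7158 in DBZ, and 9080 and 17410 in the combination, and 2 of the 5 tested rose in dexamethasone, where 7.22% of all tested probe sets rose. The summed goblet cell markers (10 of 11 with a probe set) were 31190 and 36550 in vehicle and 38020 to 58910 on all other arrays, and 5 of 10 rose in dexamethasone and 2 of 10 in DBZ, where 3.74% of all tested probe sets rose. Plasma cell markers (8 of 10 with a probe set) summed to 5609 and 9223 in vehicle, 4750 and 5406 in dexamethasone, 10890 in DBZ, and 8452 and 9544 in the combination. Igha was the brightest of them on every array. Of the 7 tested, 1 rose and 1 fell in dexamethasone, where 7.22% and 4.82% of all tested probe sets did, and 3 had a change above 0. Sdc1 was 351 and 339 in vehicle and 1008 and 1027 in dexamethasone. The 8 smooth muscle markers summed to 9735 and 13010 in vehicle and 17900 to 26970 on the others. Pancreatic acinar markers (11 of 14 with a probe set, 3 of them tested) summed to 1122 and 1608 in vehicle, 911 and 1116 in dexamethasone, 529 in DBZ, and 671 and 785 in the combination. In DBZ 1 of the 3 fell, where 4.6% of all tested probe sets fell. Clps was the brightest acinar marker on every array, at 834 and 597 in vehicle and 215 in DBZ. The untested Cela2a, Cela3b and Ctrb1 were 163, 209 and 89.2 on vehicle replicate 2 but 4.29, 6.72 and 6.39 on vehicle replicate 1. No marker of these lists was below the log offset on all arrays, and the part of these cells in the Pdia6 and Pdia3 changes was not tested.

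Pdia4 (ERp72), the remaining isomerase, was dim, with 65.2 and 45.7 in vehicle, 39.4 and 78.9 in dexamethasone, 29.0 in DBZ, and 32.3 and 43.6 in the combination. Its lowest value was on the DBZ array, and the dexamethasone pair spanned the vehicle range. The log2 change was -0.70 ± 0.44 in DBZ (interval -1.68 to 0.28), 0.03 ± 0.36 in dexamethasone and -0.42 ± 0.36 in the combination, and the intervals of all 3 include 0. The untested probe set of Pdia4 ran from 0.993 to 27.1 and that of Pdia6 from 4.17 to 25.4.

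**Figure D3:**
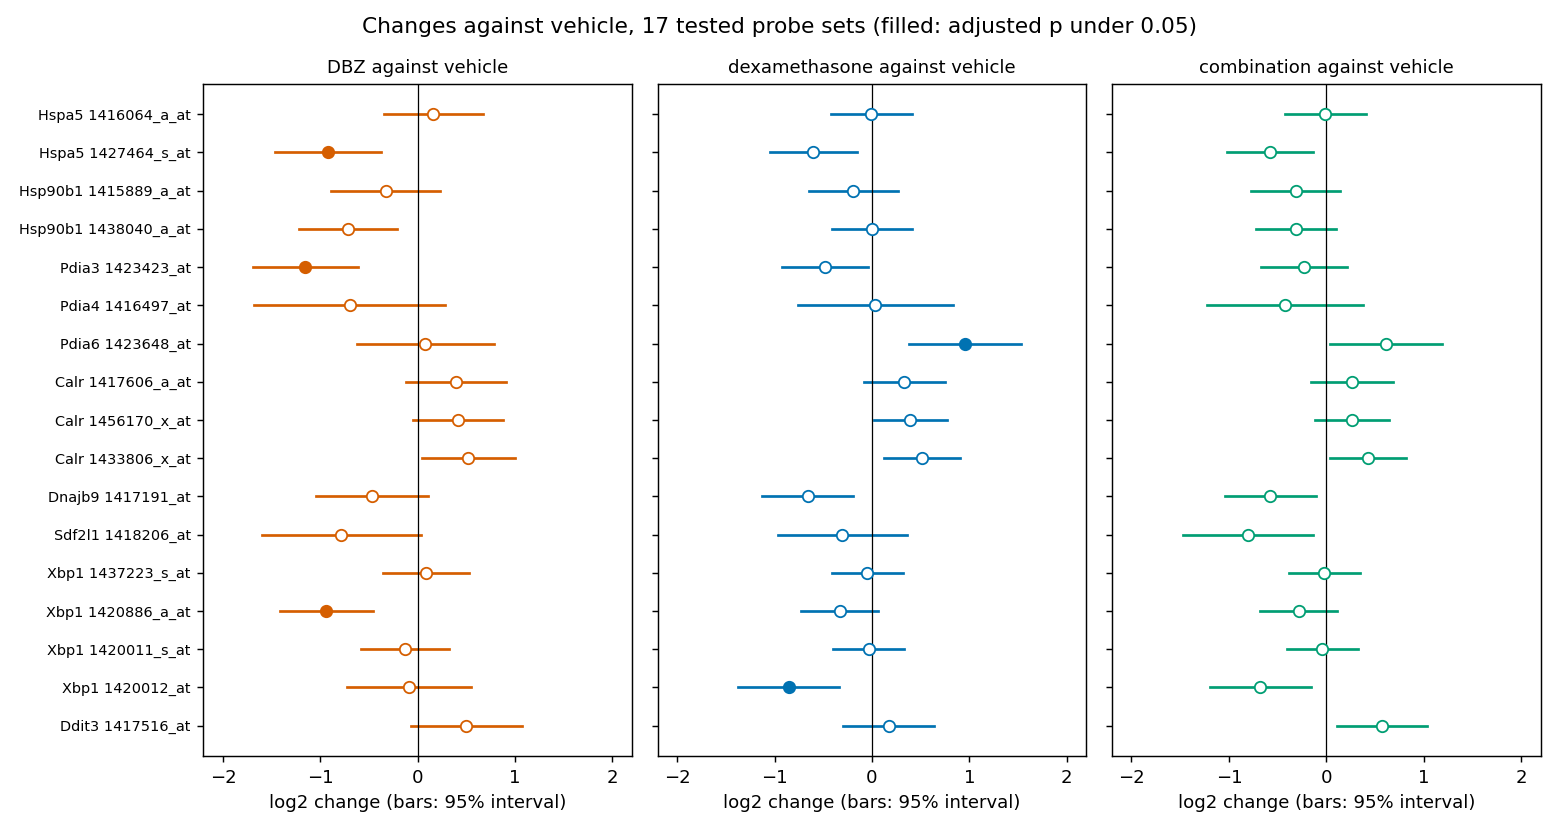
Log2 change against vehicle with its 95% interval for the 17 tested probe sets in DBZ, dexamethasone and the combination; filled points have a limma adjusted p under 0.05. Filled points are 3 in DBZ (all below 0), 2 in dexamethasone (Pdia6 at 0.95, which is -0.023 as deposited, and Xbp1 1420012_at at -0.85) and 0 in the combination; the comparisons share the vehicle arrays.

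The stress regulators behaved by probe set. Xbp1, the transcription factor whose spliced mRNA encodes the active form (the probe sets were not matched to the spliced form), gave 1933.5 and 2187 in vehicle, 1969 and 2011 in dexamethasone, 2186 in DBZ, and 2134 and 1927 in the combination by 1437223_s_at. The values overlapped in all groups, and over the 7 arrays their log2 SD was 0.08, lower than that of all but 0.499% of tested probe sets. The change was 0.09 ± 0.20 in DBZ (interval -0.36 to 0.53), -0.05 ± 0.16 in dexamethasone (-0.41 to 0.31) and -0.02 ± 0.16 in the combination (-0.38 to 0.34). Probe set 1420886_a_at of the same gene gave 1989.6 and 1616.5 in vehicle, 1419 and 1425 in dexamethasone, 931 in DBZ, and 1606 and 1349 in the combination. It was lowest on the DBZ array and below both vehicle arrays under every treatment. Its change in DBZ was -0.94 ± 0.22 (interval -1.42 to -0.46, adjusted p = 0.0301), which became -0.79 (adjusted p = 0.0836) without vehicle replicate 1. Its interaction was 0.99 ± 0.28 (adjusted p = 0.0811). A further Xbp1 probe set, 1420012_at, gave 144 and 122 in vehicle, 61.6 and 74.4 in dexamethasone, 124 in DBZ, and 79.5 and 77.1 in the combination. All 4 arrays with dexamethasone were below the 3 without it. Its change was -0.85 ± 0.23 in dexamethasone (adjusted p = 0.0418), -0.68 ± 0.23 in the combination (adjusted p = 0.110) and -0.09 ± 0.28 in DBZ. The dexamethasone call was lost without either dexamethasone array (-0.74 and -0.97), either vehicle array (-0.75 and -0.96) or either combination array (-0.85). The remaining probe set, 1420011_s_at, lay between 628 and 725 on all arrays and changed by -0.13 in DBZ.

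**Figure D4:**
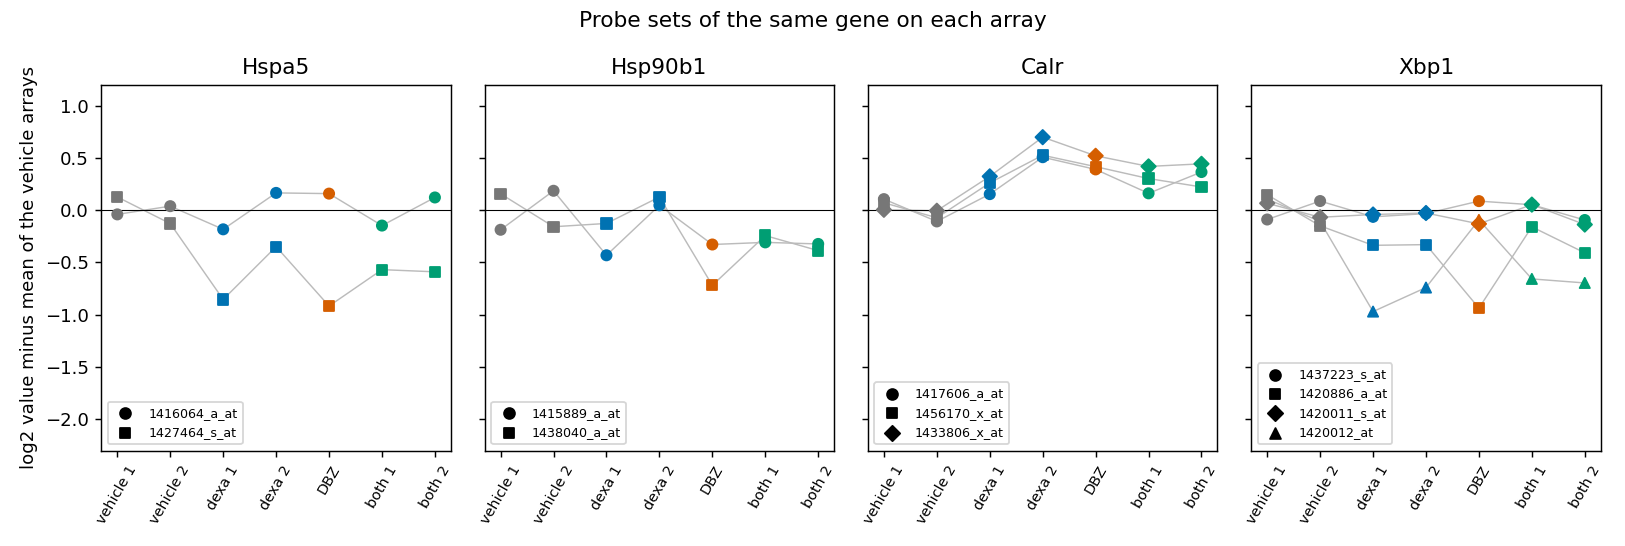
Log2 value of each probe set minus its vehicle mean on each of the 7 arrays for the 4 genes with more than 1 tested probe set; lines join the values of 1 probe set and dexa and both are dexamethasone and the combination. The 3 Calr probe sets run together, while Hspa5 1427464_s_at and Xbp1 1420886_a_at drop on the DBZ array by 0.92 and 0.94 where the brightest probe sets of these genes do not.

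Probe sets of 1 gene thus gave different calls for Hspa5 and Xbp1. The probe sets that fell in DBZ did so on the array with the highest 3' to 5' ratios, and the part of that ratio was not tested.

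Ddit3 gave 211 and 156 in vehicle, 200.3 and 212 in dexamethasone, 262 in DBZ, and 299.7 and 255 in the combination. The 3 arrays with DBZ were above the 4 without it. The change was 0.50 ± 0.25 in DBZ (interval -0.07 to 1.07, adjusted p = 0.246), 0.57 ± 0.21 in the combination (interval 0.11 to 1.04, adjusted p = 0.128) and 0.17 ± 0.21 in dexamethasone (adjusted p = 0.654), and the combination against dexamethasone gave 0.40 ± 0.21 (adjusted p = 0.591).

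Under the combination, 0 of the 10 genes and 0 of the 17 probe sets passed limma's test against vehicle, where 7.44% of all tested probe sets did. Over all tested probe sets 598 or 4.38% rose and 417 or 3.06% fell, and as deposited 132 and 10707. An unadjusted p under 0.05 was found for 4 genes and 7 probe sets, beside 24.2% of all tested probe sets. The 4 genes were Sdf2l1, Pdia6, Ddit3 and Dnajb9, with values given above. The median over the 10 genes was -0.13 against -0.04 over all tested probe sets. The combination against DBZ gave 0 of 10 genes where 0.33% of all probe sets passed. In it 1 gene, Pdia3, had an unadjusted p under 0.05, beside 12.3% of all tested probe sets. The combination against dexamethasone gave 0 of 10 where 0.0293% passed. In it 0 genes had an unadjusted p under 0.05, beside 9.36% of all tested probe sets. The interaction passed for 1 of 10 genes, Pdia3, where 4% of all tested probe sets passed (282 or 2.07% above and 263 below 0; as deposited 6379 and 118). The 3 comparisons with vehicle share its arrays, so their values are not independent of each other.

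Across the 7 arrays the genes varied to different degrees. The SD of the log2 value was 0.14 for Hspa5, 0.21 for Calr and 0.23 for Hsp90b1, against a median of 0.30 over all tested probe sets. Ddit3 was near that median (0.29), and Dnajb9 (0.35), Pdia4 (0.41), Pdia3 (0.43), Sdf2l1 (0.45) and Pdia6 (0.50) were above it. The 4 genes with a whole ER stress response element had a median log2 change of 0.12 in DBZ (range -0.33 to 0.39), 0.16 in dexamethasone and 0.13 in the combination. The 6 genes without it in this window had -0.58 (range -1.15 to 0.50), -0.17 and -0.33. These medians rest on few genes and the ranges overlap, and they are given as a description without a test. Each gene entered by its brightest probe set only. In DBZ the other probe sets of Hspa5 and Hsp90b1 changed by -0.92 and -0.72, and those of Calr by 0.42 and 0.52. Among the genes without the element, the other Xbp1 probe sets changed by -0.94, -0.13 and -0.09.

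The genes outside the list with the array pattern nearest to that of Hspa5 (1416064_a_at), by the root-mean-square difference of centred log2 values over the 7 arrays among 7979 genes, were Rnmt (0.0601), Msantd4 (0.0634), Tmem68 (0.0681), Ube3c (0.0722) and Ddx39a (0.0733), where the median of all was 0.304. Nearest to the mean pattern of the 10 genes were Phpt1 (0.0401), Usp36 (0.0649), Txnrd1 (0.0743), Trim28 (0.0747) and Top1 (0.0755), with a median of 0.294. Both patterns were nearly flat. A gene with the same value on all arrays would score 0.133 against Hspa5 and 0.129 against the mean pattern.

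The rest of the pathway was followed in 5 lists of genes beside the 10. Of 9 tested sensors and activating proteases of the stress response, 1 passed in dexamethasone, where 12% of all tested probe sets did: Ern2 (Ire1 beta), the form of the sensor found in goblet cells, rose by 1.72 ± 0.34 in dexamethasone (adjusted p = 0.0119; 0.83 and adjusted p = 0.0582 as deposited). Its signals were 122 and 49.2 in vehicle, 334 and 245 in dexamethasone, 247 in DBZ, and 179 and 237 in the combination, so every treated array was above both vehicle arrays. The call was lost without dexamethasone replicate 1 (1.502) or vehicle replicate 2 (1.15). In DBZ and in the combination 0 of 9 passed limma's test, where 8.34% and 7.44% of all tested probe sets passed. An unadjusted p under 0.05 was found for 2 in each, beside 26.4% and 24.2% of all tested probe sets. In dexamethasone it was found for 3, beside 26.9%.

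Of 23 other chaperones and folding enzymes tested, 2 rose and 1 fell in dexamethasone, where 7.22% of all tested probe sets rose and 4.82% fell. The rises were in Txndc5, a thioredoxin-domain isomerase (0.68 ± 0.17, adjusted p = 0.0308), and in Qsox1, a sulfhydryl oxidase (0.91 ± 0.23, adjusted p = 0.0317), which as deposited were -0.30 and -0.042. Ero1b, the oxidase that recharges protein disulfide isomerases, fell by 0.76 on the log2 scale (adjusted p = 0.0334). The calls on Txndc5 (0.65 to 0.71) and Ero1b (-0.82 to -0.70) were lost without any single array other than DBZ, and that on Qsox1 without either dexamethasone array (0.98 and 0.84), either combination array (0.91) or vehicle replicate 2 (0.60). In DBZ 0 of 23 passed limma's test, and in the combination 0 of 23, where 8.34% and 7.44% of all tested probe sets passed. An unadjusted p under 0.05 was found for 5 in DBZ, 5 in dexamethasone and 4 in the combination. The shares of all tested probe sets were 26.4, 26.9 and 24.2%.

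Of 17 tested genes of ER-associated degradation, the pathway that returns misfolded protein to the cytosol, 1 passed in dexamethasone, beside 12% of all tested probe sets. Herpud1, a component of the retrotranslocation complex and a stress-induced gene, had signals of 2096 and 2442 in vehicle, 1009 and 1422 in dexamethasone, 2867 in DBZ, and 2111 and 1386 in the combination. The dexamethasone arrays and combination replicate 2 were below the vehicle pair, and the DBZ array was above it. In dexamethasone it fell by 0.91 on the log2 scale (SE 0.24, adjusted p = 0.0363), and its other probe set gave -1.13. The call was lost without dexamethasone replicate 1 (-0.67), vehicle replicate 1 (-1.02) or vehicle replicate 2 (-0.80). In DBZ 0 of 17 passed limma's test and in the combination 0 of 17, where 8.34% and 7.44% of all tested probe sets passed. An unadjusted p under 0.05 was found for 2 in DBZ, 2 in dexamethasone and 3 in the combination. The shares of all tested probe sets were 26.4, 26.9 and 24.2%.

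The Atf4 and Perk branch had 18 tested genes, of which 2 rose in dexamethasone, 2 in the combination and 0 in DBZ by limma. Over all tested probe sets 7.22, 4.38 and 3.74% rose in these comparisons. In the same order 9, 6 and 4 of the 18 had an unadjusted p under 0.05, beside 26.9, 24.2 and 26.4% of all tested probe sets. Nupr1, a stress-induced chromatin protein, gave 103 and 34.2 in vehicle, 1897 and 362 in dexamethasone, 170 in DBZ, and 90.5 and 131 in the combination. Both dexamethasone arrays stood above all others, and they differed widely from each other. Its change in dexamethasone was 3.53 ± 0.64 (adjusted p = 0.00818), which was 2.35 and 4.70 without dexamethasone replicate 1 and 2 and 2.87 without vehicle replicate 2, where the call was lost. Atf3, a transcription factor induced by Atf4, gave 96.4 and 109 in vehicle, 159.6 and 250.4 in dexamethasone, 212 in DBZ, and 218 and 272 in the combination. Every treated array was above both vehicle arrays. Atf3 rose by 0.89 ± 0.24 in dexamethasone (adjusted p = 0.0437; -0.032 as deposited) and by 1.16 ± 0.24 in the combination (adjusted p = 0.0219; 0.24 and adjusted p = 0.388 as deposited). Cebpg, a dimerisation partner of Atf4, rose in the combination (0.73 ± 0.16, adjusted p = 0.0258; -0.26 as deposited). In the combination both calls were lost without either combination array (Atf3 1.31 and 1.004, Cebpg 0.66 and 0.80) or either vehicle array (Atf3 1.08 and 1.23, Cebpg 0.68 and 0.78). The Atf3 call in dexamethasone was lost without dexamethasone replicate 2 (0.58), either vehicle array (0.81 and 0.97) or either combination array (0.89).

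Of 36 tested genes of the translocon and of entry into and retrieval from the secretory route, 3 fell in DBZ, 4 in dexamethasone and 2 in the combination, and 0 rose in these comparisons. Over all tested probe sets 4.6, 4.82 and 3.06% fell. Of the 36, 7, 8 and 6 had an unadjusted p under 0.05, beside 26.4, 26.9 and 24.2% of all tested probe sets. Kdelr1, a receptor that returns chaperones such as Hspa5 from the Golgi, gave 1814 and 1814 in vehicle, 860.3 and 1254.5 in dexamethasone, 841 in DBZ, and 1442.5 and 1152 in the combination. Every treated array was below the vehicle pair and the DBZ array was lowest. In DBZ it fell by 1.10 on the log2 scale (SE 0.25, adjusted p = 0.0309), with the COPII coat genes Sec24d (by 0.98, adjusted p = 0.0346) and Sec13 (by 0.76, adjusted p = 0.0445). The interaction, which was above 0 and passed for 2.07% of all tested probe sets, passed for the same 3 genes, at 1.41, 1.47 and 1.16 (adjusted p = 0.0453, 0.0305 and 0.0388). Sec24d gave 1372 and 1701 in vehicle, 770.0 and 1010 in dexamethasone, 771 in DBZ, and 1319.5 and 1185 in the combination, and Sec13 gave 1071 and 1183.5, 845 and 944, 658, and 1222 and 1137 in the same order. For both, the DBZ value was under both combination arrays. In DBZ the call on Kdelr1 was lost without either vehicle array (-1.10), that on Sec24d without vehicle replicate 2 (-0.82) or either combination array (-0.98), and that on Sec13 without any single array other than DBZ (-0.84 to -0.69). The interaction calls were lost without either combination array or dexamethasone replicate 1, and without vehicle replicate 2, with values from 1.14 to 1.57 for Kdelr1, 1.28 to 1.55 for Sec24d and 1.08 to 1.21 for Sec13; Kdelr1 lost its call without vehicle replicate 1 (1.41) and Sec13 without dexamethasone replicate 2 (1.24) too. In dexamethasone Kdelr2 fell by 1.002 on the log2 scale (adjusted p = 0.0124; its other probe set gave -0.22), the oligosaccharyltransferase subunit Stt3a by 0.67 (adjusted p = 0.028) and Sec24d by 0.78 (adjusted p = 0.0285), and Kdelr1, named after its value was seen, by 0.80 (adjusted p = 0.0361). In the combination Kdelr2 fell by 1.17 (adjusted p = 0.0096; other probe set -0.30) and Stt3a by 0.84 (adjusted p = 0.0159). Kdelr2 lost its dexamethasone call without dexamethasone replicate 1 (-0.90) or vehicle replicate 1 (-0.74), Stt3a without any of the dexamethasone and vehicle arrays (-0.74 to -0.61), and Sec24d without dexamethasone replicate 1 (-0.59), vehicle replicate 2 (-0.63) or either combination array (-0.78). The combination calls were lost without either combination array (Kdelr2 -1.26 and -1.09, Stt3a -0.94 and -0.74) and, for Stt3a, without vehicle replicate 1 (-0.78). In the combination against DBZ and against dexamethasone 0 genes of any of the 5 lists passed limma's test, where 0.33% and 0.0293% of all tested probe sets passed. From 1 to 5 and from 0 to 4 genes a list had an unadjusted p under 0.05, beside 12.3% and 9.36% of all tested probe sets.

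**Figure D5:**
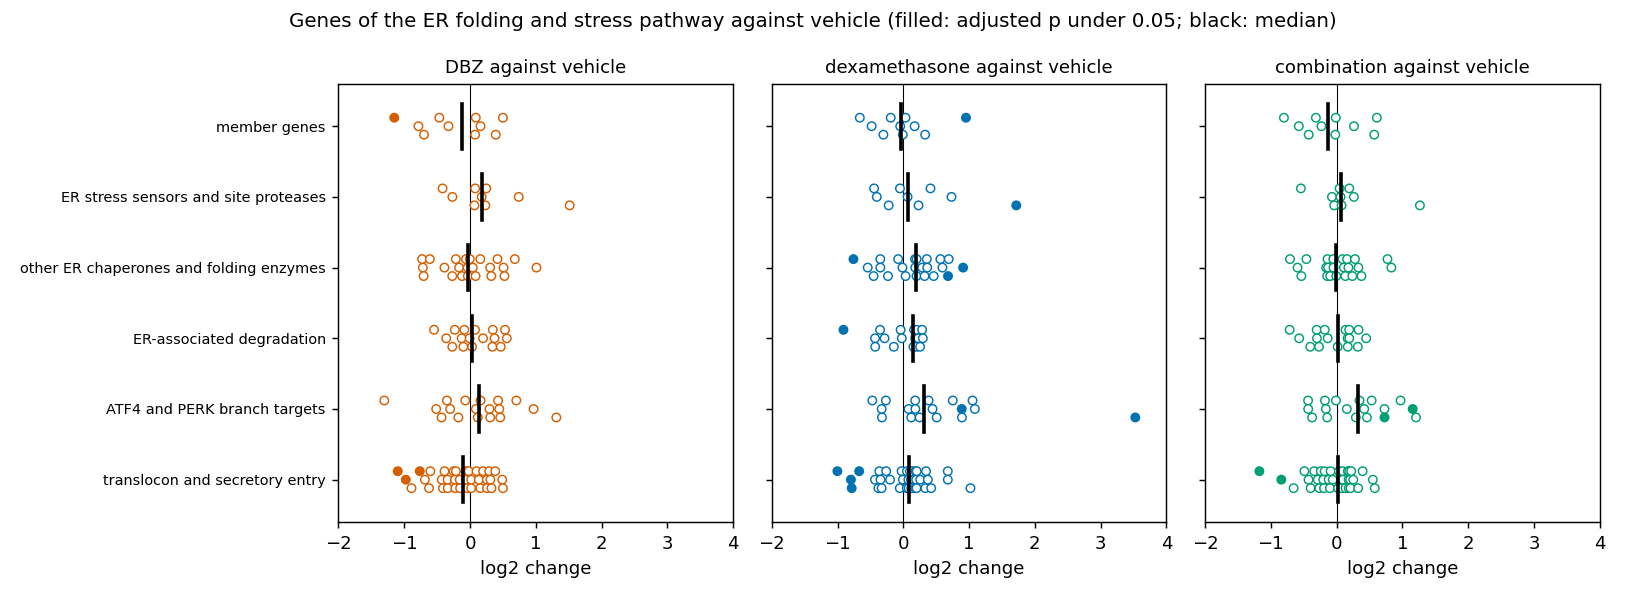
Log2 change against vehicle of each tested gene (1 point a gene) in the 10 genes described and in 5 lists of the pathway, for DBZ, dexamethasone and the combination; filled points have a limma adjusted p under 0.05 and black bars are list medians. Most points lie within 1 of 0, Nupr1 at 3.53 in dexamethasone is the highest, and the filled points of the translocon and secretory entry list lie below 0 in all 3 comparisons.

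The list medians of these comparisons lay between -0.11 (translocon and entry in DBZ) and 0.32 (Atf4 and Perk branch in the combination and in dexamethasone), against -0.05, 0.02 and -0.04 over all tested probe sets in DBZ, dexamethasone and the combination. Each of the 20 calls named for the 13 pathway genes by smallest p (which leaves out Kdelr1 in dexamethasone) was lost without at least 1 array, from 1 array for Nupr1 to 6 arrays for Ero1b, Sec13 (DBZ) and Txndc5.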

How the data were processed

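Affymetrix arrays were read as linear intensity values per probe set, which the authors made with MAS5 and deposited, per the submitters' processing notes. Its version is not stated. No detection calls came with the values. Arrays were brought to a common trimmed mean of 250, leaving out 2% at each end, and 12.3 (the 20th percentile of all signals) was added before log2. The filter kept 13638 probe sets: it dropped 64 controls and those whose mean was below 38.8, the 40th percentile. A single symbol was given for 20393 of 22690 probe sets, several for 691 and none for 1606, and a gene was represented by its probe set of highest mean signal. The number of columns of no sample was 0.

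Group means were fitted with limma 3.58.1 in R 4.3.3 with an intensity trend (3 residual and 6.83 prior degrees of freedom), with 2-sided p-values adjusted over all tested probe sets. Because the DBZ columns are 1 array, the planned 2 DBZ arrays could not be kept. The pipeline was tested on simulated data. Values after ± are SE. The genes and lists were chosen with earlier results of these data known. Named were all probe sets of the 10 genes, up to 3 genes past the threshold with the smallest p in each pathway list and comparison, the 5 genes nearest in pattern, and summed markers. The alternatives were the deposited scale, quantile normalisation, other offsets and filters, no trend, the mean over a gene's probe sets, only the groups compared, the replicate block, both DBZ columns as separate arrays, and each array left out. Promoters came from RefSeq (GRCm38.p6).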

Additional observations from a re-analysis of the deposited data

Results flagged for a closer look

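The effect of DBZ differed with and without dexamethasone, by the interaction in limma, for Pdia3 (1.40, adjusted p = 0.0401) and for the secretory entry genes Sec24d (1.47, adjusted p = 0.0305), Kdelr1 (1.41, adjusted p = 0.0453) and Sec13 (1.16, adjusted p = 0.0388). All 4 rest on the single DBZ array, which cannot be left out, and each lost its call without at least 1 of the other arrays. As the interaction uses the vehicle arrays, it carries the difference in gut position markers between vehicle and treated arrays. It also carries the difference in these markers among the treated arrays. The part of these differences was not tested.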

How the results depend on the processing

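With 7 arrays, 1 of them DBZ, small changes could not be detected, and no array can be left out of DBZ. Fits without an array of another group have fewer residual degrees of freedom than the 3 of the full fit. Txndc5 in dexamethasone, for example, lost its call without either combination array at the same change of 0.68. Of the values of single genes under the alternatives, 1772 kept their direction and side of the threshold, 153 lost and 49 gained a call, 71 uncalled values changed sign and 20 called in at least 1 of both fits reversed. All 20 reversed with the intensities as deposited, where vehicle arrays are brighter by construction. Against vehicle in DBZ these were Hspa5 (-0.84), Pdia6 (-0.90), Calr (-0.61; 1456170_x_at -0.58) and Xbp1 (-0.91). In dexamethasone they were Pdia6 (-0.023), Ddit3 (-0.78), Calr (-0.66; 1456170_x_at -0.60; 1433806_x_at -0.48), Hsp90b1 1438040_a_at (-0.99), Atf3 (-0.032), Qsox1 (-0.042) and Txndc5 (-0.30). In the combination they were Calr (-0.73; 1456170_x_at -0.73; 1433806_x_at -0.56) and Cebpg (-0.26), and in the interaction Hspa5 (0.83) and Xbp1 (0.94).

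Counts of all probe sets called are given in the order DBZ, dexamethasone and combination against vehicle, combination against DBZ, combination against dexamethasone, and interaction. They were 1137, 1642, 1015, 45, 4 and 545 as reported. With both DBZ columns as separate arrays they were 4106, 2623, 1984, 1092, 7 and 2123, as deposited 9356, 10175, 10839, 10, 0 and 6497, and with no filter 538, 1082, 623, 5, 0 and 233. Without the trend the counts outside dexamethasone against vehicle were 678, 653, 0, 0 and 206. The combination against DBZ gave 199 with only the groups compared, 8 with an offset of 32 and 6 with quantile normalisation, and the combination against dexamethasone 17 with only the groups compared, 0 with an offset of 1 and 0 with a mean signal of at least 100. Without 1 array the counts ranged from 691 to 984, 570 to 1624, 160 to 1004, 0 to 30, 0 to 104 and 92 to 567.

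Of the 10 genes, DBZ gave 9 as deposited, 0 without the trend and 0 to 1 without 1 array. Dexamethasone gave 8 as deposited, 2 with the DBZ columns apart, 0 to 2 without 1 array, and 0 without the trend, with no filter, with the mean over probe sets, with only the groups compared and with quantile normalisation. The combination gave 8 as deposited, and against DBZ 1 with the columns apart. The interaction gave 5 as deposited, 0 without the trend, 0 with no filter and 0 to 1 without 1 array. Of the 17 probe sets, the deposited scale gave 15 against vehicle in each treatment and 10 in the interaction. The DBZ columns apart gave 6 in DBZ, 5 in dexamethasone, 1 in the combination, 2 in the combination against DBZ and 3 in the interaction. DBZ gave 1 with no filter, 0 without the trend and 0 to 3 without 1 array. Dexamethasone gave 0 with no filter, 1 without the trend, 1 with a mean signal of at least 100, 0 with only the groups compared and 0 to 2 without 1 array. The interaction gave 0 with no filter, 0 without the trend and 0 to 1 without 1 array. The cause was not tested.

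The labels number the replicates and state no pairing between groups. Deviations of same-numbered arrays correlated over probe sets at 0.049 (vehicle and dexamethasone), -0.122 (vehicle and combination) and 0.115 (dexamethasone and combination). With a single pair of arrays in each group, these values cannot show whether arrays of the same number were handled together. With the replicate block, the call was lost for Pdia6 and Xbp1 1420012_at in dexamethasone, for Hspa5 1427464_s_at in DBZ (adjusted p = 0.0678) and for the Pdia3 interaction (adjusted p = 0.0589). Among the pathway genes it was lost for Herpud1 in dexamethasone (adjusted p = 0.0544), for Sec13 in DBZ (adjusted p = 0.0651), and for the Kdelr1 and Sec13 interactions (adjusted p = 0.0636 and 0.0567). Of the 10 genes and 17 probe sets, 0 genes and 0 probe sets passed in dexamethasone and 0 of each in the interaction. Under the block the combination against DBZ gave 1 probe set of all tested and the combination against dexamethasone 0.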
